A study of Rattus norvegicus with 19 samples.

Results

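Nuclear receptor genes other than the androgen, glucocorticoid and steroidogenic factor receptors were followed through the rat Leydig lineage. The set holds 34 genes, chosen by name from the superfamily with no rule on their signal, but with earlier results of these data known. A gene was read by the brightest probe set (highest mean signal over all arrays) that carries its symbol and no other, which gave 33 genes out of 14217 named on the array. Nr6a1 had no such probe set and was not analysed here. A gene was taken as too dim to read where all 5 group means lay under a signal of 50, which left 20 readable genes and 13 dim ones.

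The series holds 19 Affymetrix arrays of cells from Sprague-Dawley rats, 1 array per sample. Leydig cells make testosterone in the interstitium of the testis, and 4 stages of them were compared: stem (n = 5), progenitor (n = 3), immature (n = 4) and adult (n = 4). Bone stem cells (n = 3) formed the fifth group. No group carries a treatment or an engineered allele in the labels. The sources used here give no age, isolation or culture. Nor do they say if replicate arrays stand for different rats or dishes, so a p-value covers the spread among these arrays alone, possibly a technical one. Signals were deposited on a linear scale and already scaled to one trimmed mean per array, and the level of one probe set cannot be set against that of another.

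Nuclear receptors are transcription factors with a zinc-finger DNA-binding domain and a pocket that, in most members, takes a small lipophilic ligand. Many bind DNA as heterodimers with a retinoid X receptor (RXR) at repeats of the half-site AGGTCA, recruit corepressors without ligand and coactivators with it. The clock receptors REV-ERB (Nr1d1, Nr1d2) and ROR (Rora) compete for a single half-site in genes of the circadian loop. The NR4A receptors need no known ligand and are controlled by how fast their genes are switched on. In Leydig cells, luteinizing hormone and cyclic AMP are known to induce Nr4a1, whose product binds promoters of steroidogenic genes.

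Start-site windows of the genes, 250 bases before to 50 bases after each annotated start, were available from RefSeq (build GRCr8) for 30 of the 34 genes, as 35 windows. Nr3c2, Ppard, Nr1h4 and Nr4a3 had no window in that table. Of the motifs searched on both strands, 3 are shown where they occur in genes that the results below turn on. Capitals mark the motif. TGCGTCA, an element of the cyclic AMP response and AP-1 type, occurs in the window of Nr4a1 (chr7:134259888-134260187, plus strand), starting 248, 228, 84 and 55 bases before the start. CACGTG, the E-box bound by the clock activators, occurs once in 1 of the 2 windows of Nr1d1 (chr10:84229405-84229704, minus strand), 191 bases before the start. AGGTCA, the receptor half-site, occurs once in the window of Nr1d2 (chr15:9954784-9955083, plus strand), 187 bases before the start.
Nr4a1: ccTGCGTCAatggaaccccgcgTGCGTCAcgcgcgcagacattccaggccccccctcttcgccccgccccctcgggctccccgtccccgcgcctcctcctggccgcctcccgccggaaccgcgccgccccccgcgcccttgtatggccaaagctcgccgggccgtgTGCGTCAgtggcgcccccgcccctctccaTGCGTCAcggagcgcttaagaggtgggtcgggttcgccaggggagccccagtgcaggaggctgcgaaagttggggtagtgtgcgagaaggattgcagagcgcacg
Nr1d1: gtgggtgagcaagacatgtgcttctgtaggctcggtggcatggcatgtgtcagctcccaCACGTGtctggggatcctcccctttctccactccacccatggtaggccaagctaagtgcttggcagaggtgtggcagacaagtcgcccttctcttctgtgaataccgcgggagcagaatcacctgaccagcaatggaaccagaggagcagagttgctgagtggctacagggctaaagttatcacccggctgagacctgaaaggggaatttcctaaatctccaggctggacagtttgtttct
Nr1d2: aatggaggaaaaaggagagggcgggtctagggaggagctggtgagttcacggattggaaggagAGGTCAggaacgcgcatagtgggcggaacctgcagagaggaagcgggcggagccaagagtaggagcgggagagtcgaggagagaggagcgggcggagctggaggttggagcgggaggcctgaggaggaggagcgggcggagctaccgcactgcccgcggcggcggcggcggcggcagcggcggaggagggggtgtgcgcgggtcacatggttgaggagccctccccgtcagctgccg

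TGCGTCA was found in 1.9% of all 33469 windows in the table, and the window of Nr4a1 was the 1 window with 4 or more matches. It was the 1 window of the set with this motif. CACGTG was found in 6.42% of all windows and in windows of Nr1d1 and Esr2. AGGTCA was found in 16.2% of all windows and in windows of Nr1d2 and Rarg. TGACGTCA, the full palindrome of the cyclic AMP response element, was found in 1.83% of all windows and, in the set, in the window of Nr6a1. No motif of the 4 contains another. A match describes these letters in this window and is not a measured binding site.

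Array medians lay between 18.9 and 36.6 signal units. Progenitor replicate 3 had a 3'/5' ratio of 6.35 for the beta-actin control probe sets, against 1.03 to 2.95 on the other arrays. Immature replicate 4 had a mean correlation of 0.972 with the progenitor arrays and of 0.959 with the other immature arrays. Immature replicates 2 and 3 and bone stem replicates 2 and 3 lay closest to each other, with a median absolute log2 difference of 0.086 and 0.063 over probe sets with a median signal over 200, against 0.097 to 0.321 for the other 26 pairs within groups. Calls of readable receptors that change without these arrays are given with and without them. Of 7 Leydig markers, 6 had a group mean under 50 in stem cells, Cyp17a1 at 1.09 ± 0.55 (SD, n = 5), and none was under 50 in progenitor, immature or adult cells. The exception in stem cells was Star, at a group mean of 740.

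Markers of other cells also moved along the lineage. The summed signal of 8 smooth muscle markers was 5661 to 12184 in stem cells and 404 to 557 in progenitors. The sum of 4 red blood cell markers was 10.2 to 54.2 in stem cells, 3456 to 5380 in progenitors, 2486 to 5360 in immature and 269 to 700 in adult cells. That of 15 leukocyte markers was 716 to 1195, 4511 to 6188, 2655 to 6086 and 1614 to 4087 in the same order, and 13953 to 16762 in bone stem cells. That of 10 germ cell markers was 51.6 to 58.2, 176 to 378, 464 to 1163 and 1421 to 3234, with Odf1 at 996 ± 629 (SD, n = 4) in adult cells. Of these 10 markers, 3 rose and 1 fell from immature to adult cells, and they did not move together. Sycp3 had group means of 6.17, 119, 72.5 and 21.0 in the same order. The sum of 8 Sertoli markers was 514 to 807, 695 to 1017, 988 to 1220 and 1498 to 2515, and Cldn11 reached 1443 ± 421 (SD, n = 4) in adult cells. Clu had group means of 551, 241, 248 and 474 in the same order, and Wt1 of 57.6, 90.9, 50.4 and 74.2. Amh, Gata1, Rhox5, Dhh and Shbg stayed under 50 in every group. The part of such cells in any receptor's signal was not tested. In bulk RNA, fewer cells of a type and less RNA per cell cannot be told apart.

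Each comparison below is the difference of group means of log2(signal + 16) in one limma model over all arrays, given with its standard error (SE) and an adjusted p (Benjamini-Hochberg over all 31042 probe sets). A gene rose or fell where the adjusted p was under 0.05. The differences understate the fold of a dim gene, so ratios of mean signals are given too. The comparisons share groups, the stem cells entering 3 of them, and are therefore set side by side and not against each other. The median difference over all probe sets was 0.075 from stem to progenitor cells, 0.0055 from progenitor to immature cells, -0.069 from immature to adult cells, 0.023 from stem to adult cells and -0.049 from stem Leydig to bone stem cells. Each gene list below is described by its counts and its median, to be read beside these medians and beside the shares of probe sets called in the same comparison.

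Among the 4 Leydig stages, 24 of the 33 receptors (72.7%) differed by the F-test, of which 17 were readable, against 50.7% of all probe sets. A receptor was read by its brightest probe set, while all probe sets include dim ones and ones without a symbol. Without the lowest 40% of probe sets, 13467 of the remaining 18625 were called by the F-test. Of these 18625, 9962, 413, 6491, 11413 and 5709 were called in the comparisons, in the order of the medians above. From stem to progenitor cells, 8 receptors rose and 7 fell, with 5 readable ones in each direction. Those shares were 24.2% and 21.2% of the set, against 22% and 14.7% of all probe sets called higher and lower. The median difference of the set was 0.10, against 0.075 over all probe sets. The split of directions depended on the scaling. With each array centred on its median, the median of all probe sets moved to -0.15, 3 receptors rose and 10 fell, and 34.3% of the called probe sets were higher instead of 59.9%. With quantile normalization 6 rose and 9 fell, and 49.2% were higher. The direction of each called readable receptor was the same under all of these scalings.

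From progenitor to immature cells, limma called none of the receptors (adjusted p at least 0.171), 6 had an unadjusted p under 0.05, and 0.876% and 0.425% of all probe sets were called higher and lower. From immature to adult cells 6 receptors rose and 3 fell, all readable, which is 18.2% and 9.09% of the set against 8.05% and 13% of all probe sets. The median of the set was 0.04 and that of all probe sets -0.069. Median centring moved the latter to 0.11 and gave 7 rises and no fall among the receptors, with 65.2% of called probe sets higher in place of 38.2%. Quantile normalization gave 7 rises and 3 falls, with 48.7% higher. Over the whole span from stem to adult cells 15 receptors rose and 5 fell, 11 and 3 of them readable. That is 45.5% and 15.2% of the set, against 21.3% and 20.5% of all probe sets, with a median of 0.19 against 0.023. Of the 20 readable receptors, 5 had their highest Leydig group mean in stem cells, 1 in progenitors, 6 in immature and 8 in adult cells. Pparg, counted under stem cells, and Thrb, counted under adult cells, were readable through bone stem cells alone and dim in every Leydig stage. Rxrg and Rora were readable through adult cells alone, so the rule for readable genes fixed their place in this count.

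**Figure D1:**
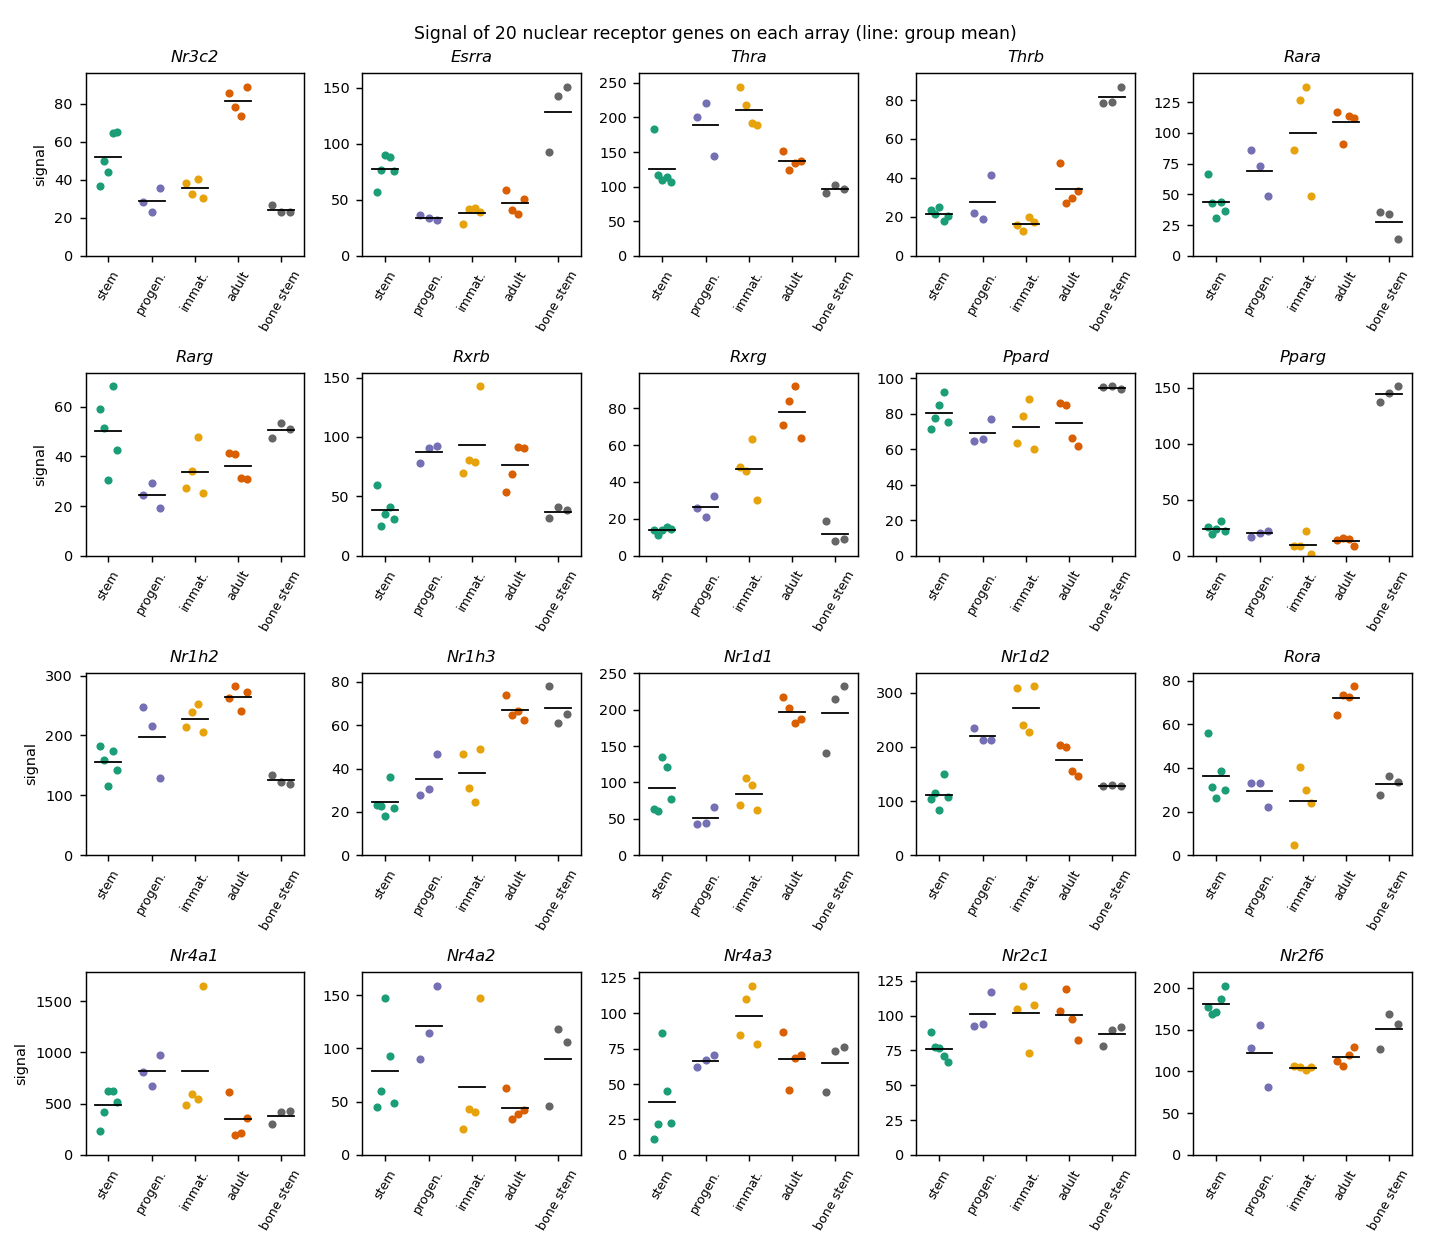
Deposited signal (linear scale, each panel from 0) of the 20 readable receptor genes on each of the 19 arrays, by group, with a line at the group mean. Nr3c2 and Rora were high in adult cells, Rxrg stepped up along the 4 stages, and Pparg and Thrb were highest in bone stem cells.

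**Figure D2:**
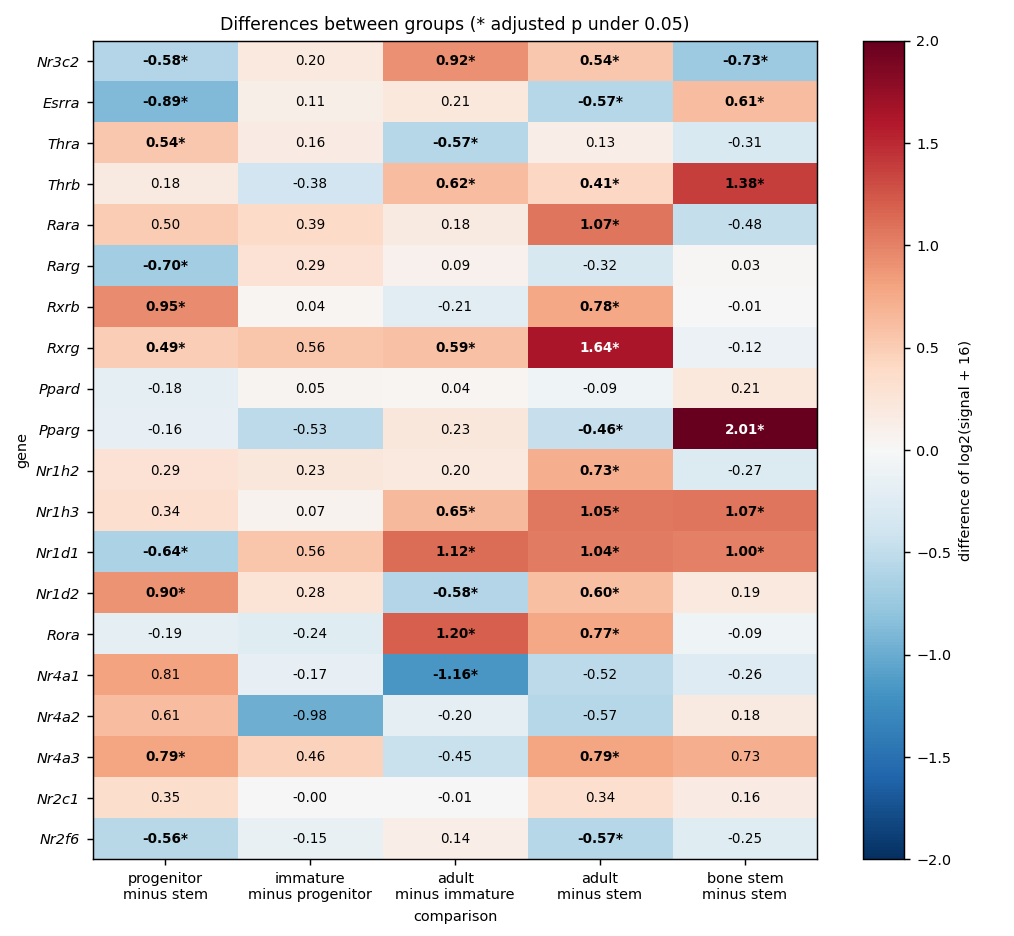
Differences of log2(signal + 16) for the 20 readable receptor genes in the 5 comparisons, colour and number giving the value and an asterisk an adjusted p under 0.05. The column from progenitor to immature cells has no asterisk, and the column from stem to adult cells has 14.

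Among the steroid receptors, the mineralocorticoid receptor Nr3c2, which binds aldosterone and also corticosterone, was read best. It fell from stem to progenitor cells and rose from immature to adult cells. Its signals were 36.6, 49.8, 44.0, 64.3 and 64.9 in stem cells, 28.1, 23.0 and 35.9 in progenitors, and 38.3, 32.5, 40.4 and 30.5 in immature cells. Adult cells gave 85.5, 78, 73.3 and 88.8. The 4 adult arrays lay above all other arrays, and the progenitor arrays lay below all stem arrays. The difference from stem to progenitor cells was -0.58 (SE 0.16, adjusted p = 0.006), that from immature to adult cells 0.92 (SE 0.15, adjusted p = 0.000161; ratio of means 2.3), and that from stem to adult cells 0.54 (SE 0.15, adjusted p = 0.00479). These calls were kept in every alternative that set no 2-fold minimum, but Nr3c2 has no further probe set that could test them. Hsd11b2, the enzyme that inactivates corticosterone and so guards this receptor in the kidney, rose from immature (32.6 ± 14.4, SD, n = 4) to adult cells (54.8 ± 10.6, SD, n = 4; adjusted p = 0.0443). It had also risen from stem cells (12.3 ± 5.35, SD, n = 5) to progenitors (44.8 ± 3.09, SD, n = 3; 1.12, adjusted p = 0.000173), the step at which Nr3c2 fell.

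The estrogen-related receptor Esrra, an orphan that works with PGC-1 coactivators on genes of mitochondrial energy metabolism, was lower in all later Leydig stages than in stem cells. Stem arrays gave 56.9, 76.7, 90.1, 88.5 and 75.8, progenitors 36.4, 33.5 and 31.9, immature cells 28.6, 42.2, 43.1 and 39.5, and adult cells 58.7, 41.2, 37.4 and 51.1. Only adult replicate 1 reached into the stem range. The difference from stem to progenitor cells was -0.89 (SE 0.17, adjusted p = 0.000278; ratio of means 0.437) and that from stem to adult cells -0.57 (SE 0.16, adjusted p = 0.00542). The classical estrogen receptors and the progesterone receptor were too dim to read. The highest group mean was 35.7 for Esr1 (adult cells), 3.86 for Esr2 (bone stem cells) and 12.6 for Pgr (stem cells).

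Of the thyroid hormone receptors, Thra rose from stem to progenitor cells and fell from immature to adult cells, and Thrb rose from immature to adult cells. Thra signals were 183.3, 117.6, 109.1, 113.7 and 106.1 in stem cells, 200.2, 221.6 and 144.8 in progenitors, 244.4, 217.9, 191.7 and 189.6 in immature cells, and 151.2, 124.2, 134.3 and 137.0 in adult cells. All immature arrays lay above all adult arrays, while stem replicate 1 lay within the progenitor range. The differences were 0.54 (SE 0.16, adjusted p = 0.0101) and -0.57 (SE 0.15, adjusted p = 0.00976). The first was lost without progenitor replicate 2 (adjusted p = 0.0778), and both were lost with median centring (0.31, adjusted p = 0.203, and -0.39, adjusted p = 0.146). A further readable Thra probe set gave 0.95 (adjusted p = 0.0862) and 0.07 (adjusted p = 0.941), so the fall into adult cells was seen by 1 of the 2 readable Thra probe sets. Thra and Nr1d1 overlap in the RefSeq gene table and lie on opposite strands.

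Thrb lay at 15.9, 12.9, 20.2 and 17.3 in immature cells and at 47.7, 26.9, 29.7 and 33.4 in adult cells, where it rose by 0.62 (SE 0.17, adjusted p = 0.0102). The groups did not overlap, and the adult arrays stayed under 50. Its rise from stem to adult cells (0.41, adjusted p = 0.0418) was lost without adult replicate 1 or 4 or stem replicate 2, 4 or 5 (adjusted p 0.0672 to 0.177), with quantile normalization (adjusted p = 0.0554) and with median centring (adjusted p = 0.0727). Of 10 measured genes of the thyroid hormone axis 3 rose and 1 fell from stem to progenitor cells (median 0.12), 1 rose from immature to adult cells (median -0.08), and 4 rose and 1 fell from stem to adult cells (median 0.09). The one that fell was Dio3, the deiodinase that inactivates thyroid hormone, from 157 ± 107 (SD, n = 5) in stem cells to 3.14 ± 0.562 (SD, n = 3) in progenitors (difference -2.94, adjusted p = 8.53e-07). Klf9, a transcription factor induced by thyroid hormone, rose from 553 ± 147 (SD, n = 5) to 858 ± 186 (SD, n = 3; difference 0.64, adjusted p = 0.00968). Me1, the cytosolic malic enzyme that supplies NADPH, rose at this step (0.90, adjusted p = 0.000242) and again from immature to adult cells (0.47, adjusted p = 0.0454), where it reached 2198 ± 353 (SD, n = 4).

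The retinoid receptors moved in different directions. Rxrg, an RXR and hence a partner of many other receptors, had the largest difference of the readable set from stem to adult cells. Its signals were 13.9, 11.4, 14.0, 15.5 and 14.3 in stem cells, 25.6, 20.7 and 32.3 in progenitors, 47.8, 46.1, 63.1 and 30 in immature cells, and 71.0, 84.0, 91.8 and 63.8 in adult cells. The stem, progenitor and adult arrays did not overlap with each other, and immature replicate 4 lay within the progenitor range. The difference from stem to adult cells was 1.64 (SE 0.16, adjusted p = 4.81e-08; ratio of means 5.62).

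The single steps of Rxrg were less firm. They were 0.49 (SE 0.18, adjusted p = 0.0361), 0.56 (SE 0.19, adjusted p = 0.19) and 0.59 (SE 0.17, adjusted p = 0.0176). The first was lost without progenitor replicate 1 or 3 or stem replicate 1, 2 or 5 (adjusted p 0.0521 to 0.159), with quantile normalization (0.28, adjusted p = 0.197) and with median centring (0.27, adjusted p = 0.2). It was lost with a pseudocount of 64 too (0.21, adjusted p = 0.0806). The last step was lost without immature replicate 4 (0.0737) or adult replicate 3 (0.0645). The middle step passed the test without immature replicate 4 (0.70, adjusted p = 0.0342). A further Rxrg probe set lay under 50 in every group.

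Rxrb, also an RXR, rose from stem to progenitor cells. It gave 59.5, 25.2, 35.0, 41.1 and 30.6 in stem cells and 78.3, 90.5 and 92.5 in progenitors, groups that did not overlap (difference 0.95, SE 0.21, adjusted p = 0.0011; ratio of means 2.28). It held 69.3, 80.2, 79.1 and 142.6 in immature and 54.0, 69.1, 91.5 and 90.8 in adult cells, 0.78 above stem cells (SE 0.19, adjusted p = 0.00244). Both calls were kept in every alternative that set no 2-fold minimum, but Rxrb has no further probe set that could test them. Rxra lay too dim to read (highest group mean 24.4, immature cells).

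Of the receptors for all-trans retinoic acid, Rara rose over the whole span and Rarg fell at the first step. Rara gave 66.6, 42.7, 31, 43.9 and 36.2 in stem cells and 116.9, 91.3, 113.3 and 112.2 in adult cells, a rise of 1.07 (SE 0.23, adjusted p = 0.000757; ratio of means 2.46) without overlap. No single step of it passed the test on all arrays. The first step, 0.50 (SE 0.25, adjusted p = 0.135), passed with progenitor replicate 3 and immature replicate 4 left out (0.69, adjusted p = 0.0279) and with array quality weights (0.67, adjusted p = 0.017). Rarg fell from 59.1, 51.6, 30.5, 68.3 and 42.8 in stem cells to 24.5, 29.3 and 19.1 in progenitors, again without overlap (-0.70, SE 0.19, adjusted p = 0.0056). Its difference from stem to adult cells was -0.32 (adjusted p = 0.147), and -0.45 (adjusted p = 0.0338) without stem replicate 3. A further Rarg probe set lay under 50 in every group and gave -0.41 (adjusted p = 0.103) from stem to progenitor cells. Rarb was too dim to read (highest group mean 26.4, stem cells).

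Of 10 measured genes of the retinoic acid response, 4 rose and 1 fell from stem to progenitor cells (median 0.48), 2 rose and 3 fell from immature to adult cells (median -0.15), and 4 rose and 1 fell from stem to adult cells (median 0.21). Cyp26b1, the enzyme that degrades retinoic acid and is known to keep it low in the fetal testis, rose from 14.4 ± 8.11 (SD, n = 5) in stem cells to 1779 ± 569 (SD, n = 3) in progenitors (difference 5.88, adjusted p = 2.87e-13). It then fell from 1827 ± 269 to 231 ± 77.3 (SD, n = 4 each) in adult cells (-2.94, adjusted p = 4.6e-08). Dhrs3, which reduces retinal to retinol, rose at that last step from 334 ± 84.4 to 1034 ± 149 (SD, n = 4 each; 1.61, adjusted p = 0.000329). Stra6, the membrane receptor for retinol carried by its plasma binding protein, rose from 18.6 ± 2.82 (SD, n = 5) to 68.5 ± 9.13 (SD, n = 3; 1.29, adjusted p = 2.36e-05) and fell to 29.8 ± 17.7 (SD, n = 4) in immature cells. Rarres2, which encodes the secreted protein chemerin, rose from 195 ± 43.9 (SD, n = 5) in stem cells to 1918 ± 268 (SD, n = 3) in progenitors (3.21, adjusted p = 5.97e-11). Tgm2, a transglutaminase induced by retinoic acid, fell from immature to adult cells (-1.61, adjusted p = 1.08e-05).

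The peroxisome proliferator-activated receptors (PPARs) sense fatty acids. Ppard was read at group means of 69.0 to 80.2 in the Leydig stages and passed no test. Its difference from stem to progenitor cells was -0.18 (adjusted p = 0.344), or -0.34 (adjusted p = 0.0388) with quantile normalization and -0.40 (adjusted p = 0.0194) with median centring. Pparg, the fat cell receptor, lay under 50 in every Leydig array. Its difference from stem to adult cells (-0.46, SE 0.18, adjusted p = 0.0433) was lost without adult replicate 1, 3 or 4 or stem replicate 1, 3, 4 or 5 (adjusted p 0.0551 to 0.146). Ppara, the receptor of fatty acid oxidation, was too dim to read (highest group mean 4.88, immature cells).

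Of 16 measured genes known as PPAR targets, 10 rose and none fell from stem to progenitor cells, with a median of 0.95 against 0.075 over all probe sets. From progenitor to immature cells 2 rose and none fell (median 0.17 against 0.0055). From immature to adult cells 10 rose and 1 fell (median 0.61 against -0.069), and from stem to adult cells 12 rose and none fell (median 1.99 against 0.023). Angptl4, a secreted inhibitor of lipoprotein lipase, rose from 22.8 ± 2.74 (SD, n = 5) in stem cells to 1201 ± 548 (SD, n = 3) in progenitors and 2132 ± 434 (SD, n = 4) in adult cells. Cd36, a fatty acid and lipoprotein receptor, rose from 275 ± 43.3 (SD, n = 3) in progenitors to 1377 ± 631 (SD, n = 4) in immature cells (2.10, adjusted p = 0.002), and stood at 2847 ± 481 (SD, n = 4) in adult and 12 ± 4.77 (SD, n = 5) in stem cells. Pdk4, the kinase that shuts off pyruvate dehydrogenase, rose from 127 ± 25.4 to 419 ± 89.4 (SD, n = 4 each) between immature and adult cells (1.60, adjusted p = 2.26e-06). Acadm, the medium-chain acyl-CoA dehydrogenase, rose from 252 ± 12.1 (SD, n = 5) to 857 ± 65.4 (SD, n = 3) between stem and progenitor cells. Ehhadh, a peroxisomal enzyme of fatty acid oxidation, rose from 20.2 ± 4.43 to 87.2 ± 26.3 (SD, n = 4 each) between immature and adult cells (1.49, adjusted p = 7.2e-06). Acot1, a cytosolic acyl-CoA thioesterase, was the gene that fell into adult cells, from 169 ± 42.9 to 49.8 ± 8.19 (SD, n = 4 each; -1.47, adjusted p = 1.49e-06).

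The liver X receptors Nr1h3 and Nr1h2, sensors of oxysterols that drive cholesterol export, were higher in adult than in stem cells. Nr1h3 gave 23.1, 22.5, 18.3, 36.2 and 21.6 in stem cells, 27.9, 30.4 and 46.8 in progenitors, 46.9, 31.2, 24.5 and 48.9 in immature cells, and 73.9, 64.7, 66.8 and 62.2 in adult cells. All adult arrays lay above all arrays of the earlier stages. It rose by 0.65 from immature to adult cells (SE 0.18, adjusted p = 0.0109) and by 1.05 from stem to adult cells (SE 0.17, adjusted p = 2.33e-05; ratio of means 2.75), calls kept in every alternative that set no 2-fold minimum. Nr1h3 has no further probe set that could test them. Nr1h2 had group means of 155 ± 26.5 (SD, n = 5) in stem cells, 197 ± 61.1 (SD, n = 3) in progenitors, 228 ± 21.5 and 265 ± 17.4 (SD, n = 4 each) in immature and adult cells. Its difference from stem to adult cells was 0.73 (SE 0.15, adjusted p = 0.000378) without overlap, and that from stem to progenitor cells 0.29 (adjusted p = 0.175), or 0.55 (adjusted p = 0.00586) without progenitor replicate 3.

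Of 10 measured liver X receptor targets (Nr1h3 itself not counted) 7 rose and 1 fell from stem to progenitor cells (median 0.72), and 7 rose and 1 fell from stem to adult cells (median 1.44). From immature to adult cells 3 rose and none fell (median 0.31). Abca1, the cholesterol exporter, rose from 207 ± 99.7 (SD, n = 5) in stem cells to 1662 ± 151 (SD, n = 3) in progenitors (3.02, adjusted p = 1.69e-08). Abcg1, a second cholesterol exporter, was at 104 ± 17.9 (SD, n = 5) in stem cells and rose to 670 ± 26.3 (SD, n = 4) in adult cells (2.52, adjusted p = 8.24e-11). Mylip, a ubiquitin ligase that degrades the LDL receptor, rose from 38.6 ± 9.43 (SD, n = 5) in stem cells to 135 ± 13.3 (SD, n = 3) in progenitors (1.48, adjusted p = 1.6e-08). Lpcat3, which builds polyunsaturated phospholipids, reached 2203 ± 183 (SD, n = 4) in adult cells from 358 ± 67.0 (SD, n = 5) in stem cells. Lpl, lipoprotein lipase, was the target that fell, from 415 ± 98.2 (SD, n = 5) to 20.1 ± 1.17 (SD, n = 3) in progenitors (-3.54, adjusted p = 3.27e-09). Srebf1 and Apoe rose from immature to adult cells, by 0.82 (adjusted p = 8.94e-05) and 1.14 (adjusted p = 0.000562). The 9 endothelial markers summed to 311 to 499 in stem, 962 to 1917 in progenitor, 265 to 819 in immature and 575 to 2974 in adult cells, and their part was not tested. Nr1h4, the bile acid receptor, was too dim to read (highest group mean 6.72, progenitors).

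**Figure D3:**
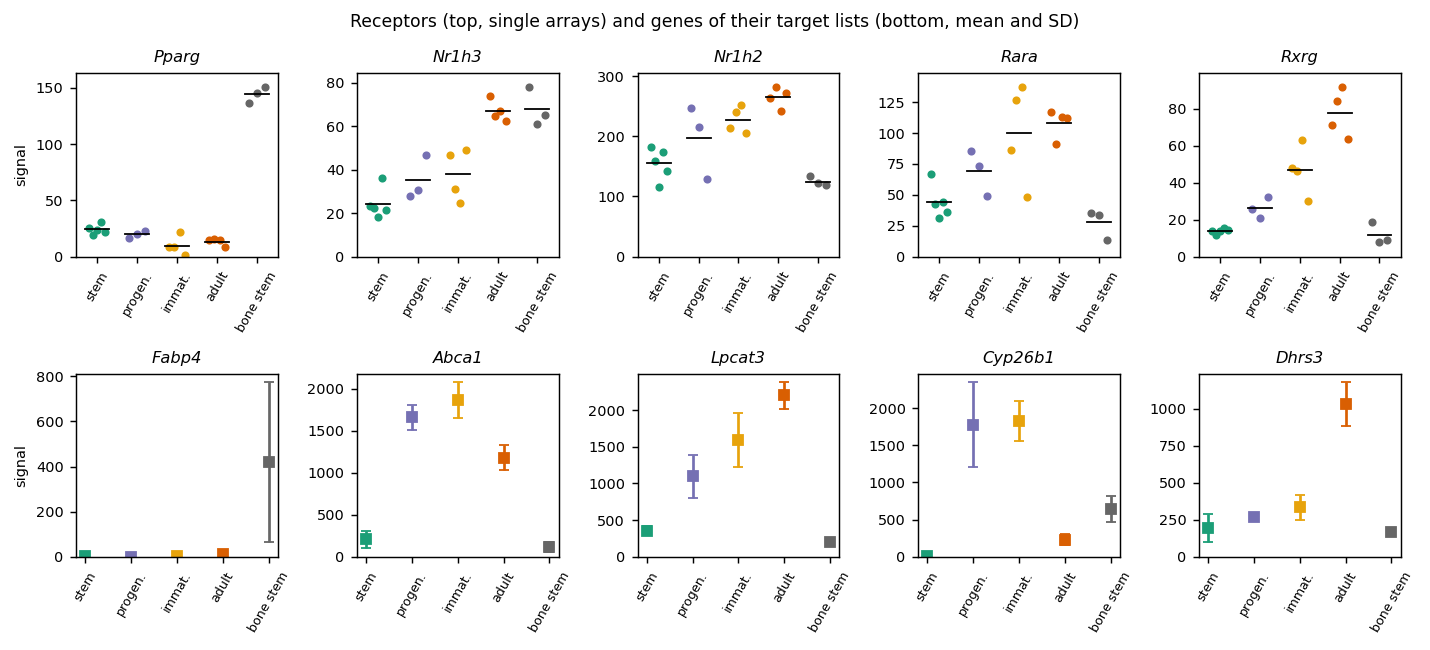
Signal of Pparg, Nr1h3, Nr1h2, Rara and Rxrg on each array with group means (top row) and group means with SD of Fabp4, Abca1, Lpcat3, Cyp26b1 and Dhrs3 from the PPAR, liver X receptor and retinoic acid lists (bottom row), all on linear axes from 0. Abca1 and Cyp26b1 stood at 1662 and 1779 in progenitors against 207 and 14.4 in stem cells, and Fabp4 was bright in bone stem cells, with a wide SD.

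The clock receptors took different courses. Nr1d1 gave 64.1, 61.3, 134.6, 121.1 and 77.9 in stem cells, 42.7, 44.4 and 66.9 in progenitors, 68.9, 106.2, 96.3 and 62.5 in immature cells, and 217.3, 202.4, 182.3 and 186.7 in adult cells. All adult arrays lay above all arrays of the earlier stages. The rise from immature to adult cells was 1.12 (SE 0.21, adjusted p = 0.000669; ratio of means 2.36) and that from stem to adult cells 1.04 (SE 0.20, adjusted p = 0.000265), both kept in every alternative that set no 2-fold minimum. Nr1d1 has no further probe set that could test them. The fall from stem to progenitor cells (-0.64, SE 0.22, adjusted p = 0.0276) was lost without progenitor replicate 1 or 2 or stem replicate 3 or 4 (adjusted p 0.0704 to 0.108).

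Nr1d2, its paralog, gave 104.1, 115.6, 82.8, 149.4 and 107.2 in stem cells, 234.4, 212.2 and 212.0 in progenitors, 308.9, 239.8, 227.1 and 312.1 in immature cells, and 203.6, 199.0, 156.3 and 146.6 in adult cells. The progenitor and immature arrays lay above all stem and adult arrays. It rose by 0.90 from stem to progenitor cells (SE 0.15, adjusted p = 7.46e-05; ratio of means 1.96) and fell by 0.58 from immature to adult cells (SE 0.15, adjusted p = 0.00677), where Nr1d1 rose. The fall was lost with median centring (-0.40, adjusted p = 0.106), and a further readable Nr1d2 probe set gave -0.06 (adjusted p = 0.867), with 145 ± 27.3 in immature and 139 ± 31.6 (SD, n = 4 each) in adult cells. Adult cells stayed 0.60 above stem cells (SE 0.14, adjusted p = 0.00144).

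Rora, the activator that shares the REV-ERB sites, was a late gene. Its signals were 55.9, 31.2, 26.2, 38.8 and 29.9 in stem cells, 33.1, 33.2 and 22.2 in progenitors, 4.6, 40.4, 29.9 and 23.8 in immature cells, and 64.3, 73.2, 72.3 and 77.5 in adult cells. The 4 adult arrays lay above all others. It rose by 1.20 from immature to adult cells (SE 0.23, adjusted p = 0.000815; ratio of means 2.91) and by 0.77 from stem to adult cells (SE 0.22, adjusted p = 0.00777). A further Rora probe set lay under 50 in every group and gave -0.31 (adjusted p = 0.321) from immature to adult cells.

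Of 14 other clock genes measured, 6 rose and 2 fell from stem to progenitor cells (median 0.37), 1 rose from progenitor to immature cells (median 0.24), 6 rose and none fell from immature to adult cells (median 0.32), and 10 rose and none fell from stem to adult cells (median 0.67). Npas2, a partner of BMAL1 on the E-box, rose from 55.5 ± 10.3 (SD, n = 3) in progenitors to 155 ± 36.9 in immature and 486 ± 46.8 (SD, n = 4 each) in adult cells, with adjusted p = 0.00137 and 1.71e-06. Per2, a repressor of the loop, rose from 79.8 ± 12.9 (SD, n = 5) in stem cells to 172 ± 11.5 (SD, n = 3) in progenitors (0.98, adjusted p = 1.34e-05) and stood at 364 ± 32.5 (SD, n = 4) in adult cells. Cry1 and Per3, of the repressor families of the loop, rose from stem to progenitor cells by 0.84 (adjusted p = 0.000119) and 1.49 (adjusted p = 0.000465). Dbp, an output gene driven from E-boxes, rose from 184 ± 20.2 to 346 ± 32.5 (SD, n = 4 each) between immature and adult cells (0.86, adjusted p = 0.00053). Bhlhe41, a repressor at E-boxes, rose there from 34.9 ± 13.2 to 135 ± 20.6 (1.59, adjusted p = 7.86e-06). The sources used here name no hour of collection, and stage and hour cannot be told apart for genes that cycle within a day.

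**Figure D4:**
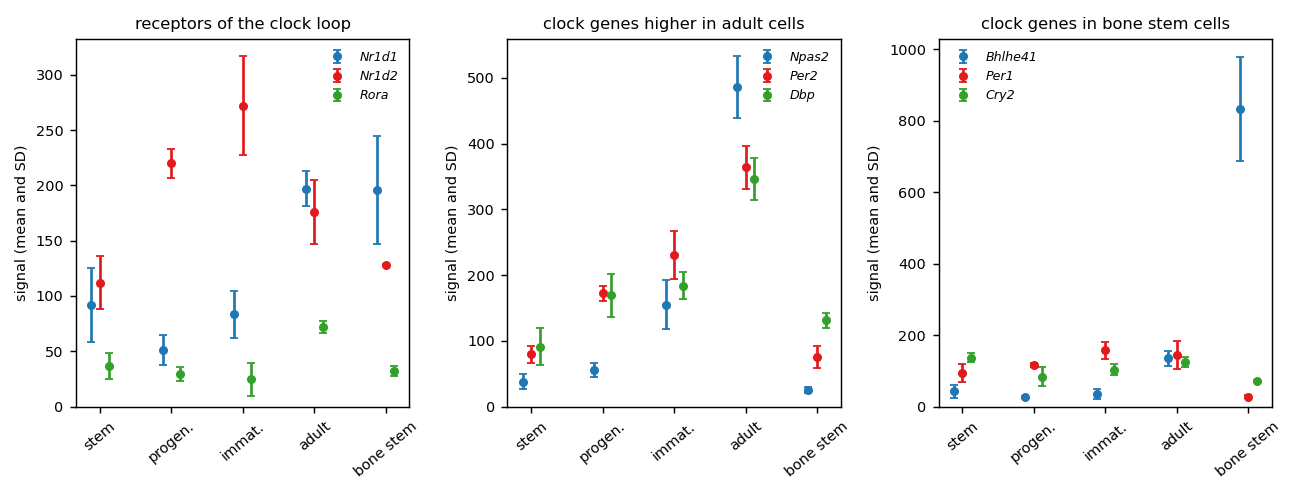
Group means with SD of the linear signal (axes from 0) for Nr1d1, Nr1d2 and Rora (left), for Npas2, Per2 and Dbp (middle) and for Bhlhe41, Per1 and Cry2 (right). Nr1d1 and Rora were highest among the Leydig stages in adult cells, Nr1d2 in immature cells, and Bhlhe41 stood at 834 in bone stem cells.

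The NR4A receptors had the largest standard errors of the readable genes. Nr4a1 gave 228.6, 417.5, 623.3, 625.5 and 514.1 in stem cells, 806.6, 675.4 and 977.6 in progenitors, 488.6, 597.4, 547.0 and 1649.4 in immature cells, and 608.3, 197.0, 216.5 and 358.9 in adult cells. Progenitor arrays lay above all stem arrays, and immature replicate 4 above every other array. The difference from stem to progenitor cells was 0.81 (SE 0.38, adjusted p = 0.101), and it passed the test with quantile normalization (0.95, adjusted p = 0.046) and with only these groups in the fit (adjusted p = 0.0496). Nr4a1 fell by 1.16 from immature to adult cells (SE 0.36, adjusted p = 0.0271; ratio of means 0.421). That call was lost without immature replicate 4 (-0.77, adjusted p = 0.12), adult replicate 2 (adjusted p = 0.0908) or adult replicate 3 (adjusted p = 0.0941), and with median centring (adjusted p = 0.0594).

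Nr4a2 passed no test, with group means from 44.3 in adult cells to 121 in progenitors. Its difference from progenitor to immature cells was -0.98 (SE 0.40, adjusted p = 0.308), and -1.40 (adjusted p = 0.022) without immature replicate 4, which read 147.0 against 23.9 to 43.1 on the other immature arrays. Nr4a3 gave 11.5, 22.0, 85.8, 44.8 and 22.5 in stem cells, 61.8, 67.1 and 70.5 in progenitors, 84.7, 110.3, 119.4 and 78.6 in immature cells, and 86.6, 45.9, 68.3 and 70.3 in adult cells. Stem replicate 3 lay above all progenitor arrays and within the adult range. Nr4a3 rose by 0.79 from stem to progenitor cells (SE 0.30, adjusted p = 0.0425) and by 0.79 from stem to adult cells (SE 0.27, adjusted p = 0.0238). The first was lost without any 1 of progenitor replicates 1, 2 and 3 or stem replicates 1, 2 and 5 (adjusted p 0.0741 to 0.113), with quantile normalization (0.58, adjusted p = 0.152), with median centring (0.56, adjusted p = 0.134) and with the closest pairs of arrays averaged (adjusted p = 0.0532). The second was lost without adult replicate 1, 3 or 4 or stem replicate 1, 2 or 5 (adjusted p 0.0502 to 0.0796). A further readable Nr4a3 probe set gave -0.16 (adjusted p = 0.74) from stem to adult cells.

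NR4A genes belong to the immediate early response, the genes switched on within minutes by hormone, serum or tissue dissociation. The mean log2(signal + 16) of 19 other immediate early genes was 9.43 on immature replicate 4, against 8.41 to 8.44 on the other immature arrays. It ranged from 8.50 to 9.43 on adult arrays, 8.52 to 8.76 on stem arrays and 8.79 to 9.06 on progenitor arrays. Adult replicates 1, 3 and 4 stood higher on this mean than every progenitor array, while Nr4a1 was at 608.3, 216.5 and 358.9 on them. Of the 19 genes, 8 rose and 3 fell from stem to progenitor cells (median 0.51), 3 rose and none fell from immature to adult cells (median 0.19), and 7 rose and 2 fell from stem to adult cells (median 0.31). Jun and Zfp36, an AP-1 subunit and an mRNA decay factor, rose from stem to progenitor cells by 1.91 (adjusted p = 9.12e-06) and 2.12 (adjusted p = 1.27e-05), and the AP-1 subunit Fosl1 fell by 2.78 (adjusted p = 9.86e-07). Jund, a further AP-1 subunit, rose from stem to adult cells by 1.22 (adjusted p = 3.73e-07). Ier3, Dusp1 and Atf3 were those that rose from immature to adult cells. The part of the early response in the NR4A signals was not tested.

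**Figure D5:**
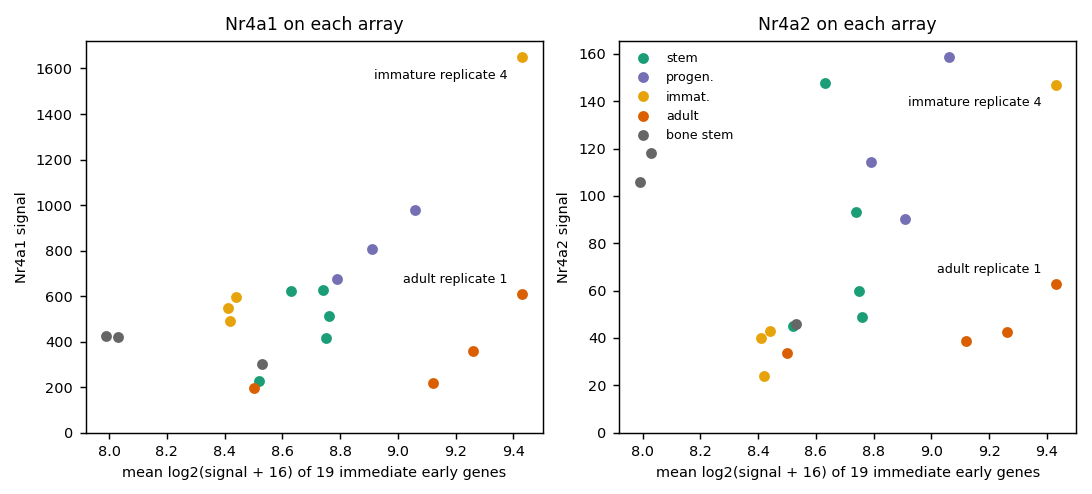
Linear signal of Nr4a1 (left) and Nr4a2 (right) on each of the 19 arrays against the mean log2(signal + 16) of 19 other immediate early genes on the same array, coloured by group. Immature replicate 4 stands at 9.43 with the highest Nr4a1 signal, 1649.4, and adult replicate 1 at the same mean with 608.3.

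Of the other orphans, Nr2f6, a COUP-TF relative that represses transcription, fell from stem to progenitor cells. It gave 177.4, 168.3, 171.2, 186.9 and 202.6 in stem cells, 127.6, 155.8 and 81.3 in progenitors, 106.5, 105.0, 101.2 and 105.4 in immature cells, and 112.6, 106.5, 119.5 and 129.4 in adult cells. No array of a later stage reached the stem range. The differences were -0.56 from stem to progenitor cells (SE 0.15, adjusted p = 0.0045) and -0.57 from stem to adult cells (SE 0.13, adjusted p = 0.00147). The first was lost without progenitor replicate 3 (-0.33, adjusted p = 0.0572). The suffix of its probe set marks probes that can match several transcripts, and the gene's other probe sets lay under 50 in every group.

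Nr2c1, the testicular receptor 2, had group means from 76.0 in stem to 102 in immature cells and passed no test from stem to progenitor (0.35, adjusted p = 0.0697) or from stem to adult cells (0.34, adjusted p = 0.0503). Without stem replicate 1 these reached an adjusted p of 0.0495 and 0.0349, and without adult replicate 4 the second reached 0.027. Dropping both immature replicate 4 and progenitor replicate 3 brought the second to 0.0417, and with the closest pairs of arrays averaged the adjusted p values were 0.0491 and 0.0341. Nr2f1, Nr2c2 and Hnf4a were too dim to read, with highest group means of 34.7 (stem cells), 11.3 and 14.2 (immature cells). So were the vitamin D receptor Vdr at 12.7 (progenitors) and the xenobiotic receptors Nr1i2 at 25.8 (immature cells) and Nr1i3 at 8.08 (stem cells). No change is described for a dim gene, although 7 dim genes were among those called by the F-test.

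Nuclear receptors act through coregulators, of which 18 were measured. From stem to progenitor cells 6 rose and 2 fell (median 0.22), from immature to adult cells none rose and 4 fell (median -0.25), and from stem to adult cells 4 rose and 3 fell (median 0.20). The coactivator Ncoa1 rose from 94.4 ± 9.2 (SD, n = 5) in stem cells to 270 ± 50.3 (SD, n = 3) in progenitors (1.36, adjusted p = 1.4e-06) and fell from 302 ± 89.6 to 199 ± 14.2 (SD, n = 4 each) between immature and adult cells (-0.53, adjusted p = 0.0232). Nsd1, a histone methyltransferase that binds nuclear receptors, rose and fell at the same steps (1.0 and -0.40, adjusted p = 5.16e-06 and 0.0329). Crebbp, a histone acetyltransferase and coactivator, fell from 187 ± 13.4 to 132 ± 19.7 (SD, n = 4 each) between immature and adult cells (-0.47, adjusted p = 0.0332). Tbl1x and Hdac3, parts of the NCoR and SMRT corepressor complex, were lower in adult than in stem cells, by -0.83 (adjusted p = 1.33e-05) and -0.48 (adjusted p = 0.00064).

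Bone stem cells, a stem population from another tissue, were compared with stem Leydig cells. There 5 receptors rose (Esrra, Thrb, Pparg, Nr1h3 and Nr1d1) and 2 fell (Nr3c2 and Nr2f1, the latter dim). That is 15.2% and 6.06% of the set, against 8.73% and 9.79% of all probe sets, with a median of 0.00 against -0.049. Median centring gave the same number of rises and falls in the set, while 59.3% of the called probe sets were higher in place of 47.1%. Of the 20 readable receptors, 6 had their highest mean of all 5 groups in bone stem cells and 1 in stem Leydig cells. Pparg and Thrb, among these 6, were readable through bone stem cells alone, so the rule for readable genes fixed their place in this count.

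Pparg showed the largest difference of the set. Its signals were 136.7, 145.4 and 151.0 in bone stem cells and 25.2, 19.6, 23.5, 30.6 and 21.5 in stem Leydig cells, groups far apart (2.01, SE 0.19, adjusted p = 1.64e-07; ratio of means 6). Of the 16 PPAR targets, 6 rose and none fell (median 0.22). Fabp4, the fatty acid binding protein of fat cells and macrophages, rose from 4.7 ± 2.45 (SD, n = 5) to 420 ± 353 (SD, n = 3; 4.12, adjusted p = 3.02e-08), and Plin4, a lipid droplet coat protein, from 8.9 ± 5.86 to 94.6 ± 18.4 (2.17, adjusted p = 7.52e-06). Of 6 fat cell markers, 3 of which are also on the PPAR list, Fabp4 and Cebpa rose, while Adipoq, Plin1, Cidec and Lep stayed under 50 in every group. Their sum was 360 to 1107 in bone stem and 78.7 to 109 in stem Leydig cells. Of the 15 leukocyte markers 11 rose, with the macrophage genes Cd68 at a group mean of 2094 and Lyz2 at 3717 ± 429 (SD, n = 3). The part of fat cells or macrophages in the Pparg signal was not tested.

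Thrb gave 78.3, 79.0 and 86.8 in bone stem cells, above every Leydig array (1.38, SE 0.17, adjusted p = 5.64e-06; ratio of means 3.77). The further Thrb probe sets lay under 50 in every group. Nr1h3 gave 78.1, 60.9 and 65.2, above all stem Leydig arrays (1.07, SE 0.18, adjusted p = 0.000217). Its targets split, with 3 of 10 rising and 2 falling (median -0.19): Mylip, Apoe and Lpl rose by 0.93 (adjusted p = 3.07e-05), 1.37 (adjusted p = 0.000122) and 1.72 (adjusted p = 0.000154). Lpcat3 was among the 2 that fell (-0.74, adjusted p = 0.00748). Macrophages are known to express both Apoe and Nr1h3, and the leukocyte markers of bone stem cells are given above. The part of macrophages in the Nr1h3 and Apoe signals was not tested.

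Nr1d1 gave 140.0, 214.4 and 232.5 in bone stem cells, again above all stem Leydig arrays (1.0, SE 0.22, adjusted p = 0.00276), while Nr1d2 differed by 0.19 (adjusted p = 0.471). Of the 14 clock genes 2 rose and 4 fell (median -0.11). Bhlhe41 rose from 42.9 ± 18.4 (SD, n = 5) to 834 ± 146 (SD, n = 3; 3.88, adjusted p = 4.04e-11), and Per1 fell from 93.9 ± 24.8 to 27.8 ± 4.94 (-1.30, adjusted p = 3.64e-05). Esrra gave 92.3, 142.6 and 150.8, all above the stem Leydig arrays (0.61, SE 0.17, adjusted p = 0.0145). That call was lost without bone stem replicate 2 (adjusted p = 0.0949) or 3 (adjusted p = 0.115), and with the closest pairs of arrays averaged (adjusted p = 0.111).

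Nr3c2 fell, with 26.6, 23.3 and 23.0 in bone stem cells, all below the stem Leydig arrays (-0.73, SE 0.16, adjusted p = 0.00219). Nr4a3 differed by 0.73 (adjusted p = 0.0959), and by 1.01 (adjusted p = 0.00384) without stem replicate 3. The retinoid receptors Rara (-0.48, adjusted p = 0.23), Rarg (0.03, adjusted p = 0.946), Rxrb (-0.01, adjusted p = 0.988) and Rxrg (-0.12, adjusted p = 0.756) passed no test. Of the 10 retinoic acid response genes 4 rose and none fell (median 0.17), among them Cyp26b1, to 647 ± 178 (SD, n = 3), Tnip1, by 1.0 (adjusted p = 0.000383), and Rarres2, by 0.82 (adjusted p = 0.00535). Of the thyroid hormone axis 1 rose and 2 fell (median -0.12), of the coregulators 1 rose and 2 fell (median -0.03), and of the immediate early genes 1 rose and 6 fell (median -0.59). Among the coregulators Ncoa4 rose by 0.80 (adjusted p = 0.00308) and Nrip1, a corepressor also known as RIP140, differed by -0.96 (adjusted p = 0.00408). The early genes Klf4, Fosb and Junb fell, with differences of -1.56 (adjusted p = 0.000474), -2.21 (adjusted p = 0.000617) and -1.07 (adjusted p = 0.00281).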

How the data were processed

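Signals of 31099 probe sets on 19 arrays were deposited by the authors as intensity values on a linear scale, which per the submitters' processing notes came from GCOS and MAS5, without stated versions. No detection calls were used. Each array was already scaled to a 2% trimmed mean of 99.99. The 57 control probe sets were left out. Symbols came from the platform annotation: 20826 probe sets had 1, 436 several and 9780 none, and a RefSeq table (GRCr8) held the gene ID of 20758 and changed 0 symbols. The sequences came from its start-site windows.

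Signals were transformed to log2(signal + 16), and limma 3.58.1 (R 4.3.3) fitted 5 group means with an intensity trend. The two-sided p-values were adjusted by Benjamini-Hochberg over 31042 probe sets, and an adjusted p under 0.05 was a call. Python 3.11.15, pandas 2.3.3 and matplotlib 3.10.9 did the rest, and the fit was tested on simulated data. The number of arrays limits the precision.

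Every receptor is named. From each pathway list the called genes with the 3 smallest adjusted p and a group mean of 50 or more are each named in at least 1 comparison. Marker lists are given in part, by counts, summed signals or single genes in some groups, and a list of osteoblast markers is left out. Other genes named were chosen after their values were seen. The receptors and lists were chosen with earlier results of these data known. Alternatives were the scaling, the pseudocount, a filter on dim probe sets, the variance model, array weights, the replicate number as a block, other probe sets of a gene, a 2-fold minimum, the groups in the fit and each array left out. Leaving out progenitor replicate 3 and immature replicate 4 together, and averaging the 2 closest pairs of arrays, were added after seeing the data.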

Additional observations from a re-analysis of the deposited data

Results flagged for a closer look

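In groups of 4 or 5 arrays, 4 of the 60 groups of the readable receptors held an array far from the others, where chance gives about 1 in 20. The Thra signal was 183.3 on stem replicate 1, against 106.1 to 117.6 on the other stem arrays. The Rara signal was 91.3 on adult replicate 2, against 112.2 to 116.9 on the other adult arrays. The Pparg signal was 8.1 on adult replicate 4, against 14.3 to 15.8, all of them dim. The Nr4a1 signal was 1649.4 on immature replicate 4, against 488.6 to 597.4 on the other immature arrays.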

How the results depend on the processing

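Of the readable calls, those kept in every alternative that set no 2-fold minimum were 4 of 10 from stem to progenitor cells (Nr3c2, Esrra, Rxrb and Nr1d2), 3 of 9 from immature to adult cells (Nr3c2, Nr1h3 and Nr1d1), 7 of 14 from stem to adult cells (Nr3c2, Esrra, Rara, Rxrb, Nr1h3, Nr1d1 and Nr1d2) and 4 of 6 in bone stem cells (Nr3c2, Pparg, Nr1h3 and Nr1d1). Of these genes only Nr1d2 has further probe sets that carry its symbol alone, so other probe sets could not test the rest. Rxrg and Nr1h2 from stem to adult cells were lost in 1 alternative only, a second probe set under 50 in every group. The same held for Rarg from stem to progenitor cells. Leaving out 1 array gave 10 to 14, 0 to 2, 7 to 10, 15 to 18 and 6 to 8 receptors called in the comparisons in the order above, and 21 to 25 by the F-test. Leaving out immature replicate 4 called 2 from progenitor to immature cells (Rxrg and Nr4a2), leaving it out with progenitor replicate 3 called 1 (Rxrg), and array weights called 2 (Rxrg and Nr1d1). A 2-fold minimum left 1, 3 and 6 receptors from stem to progenitor, immature to adult and stem to adult cells. From stem to progenitor cells this was Nr2f1, a dim gene, so no readable receptor was left there. From stem to adult cells the readable ones left were Rara, Rxrg, Nr1h3 and Nr1d1, and the others were the dim Esr1 and Nr2f1. From immature to adult cells, the second brightest probe set called 4 and the mean of a gene's probe sets 5. With the second brightest probe set, Thra (0.07), Rxrg (-0.11) and Rora (-0.31) reversed from immature to adult cells, and Nr4a3 (-0.16) from stem to adult cells; the cause was not tested. Low signals have no tested floor, which limits every dim gene.

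Over all probe sets, the 404 calls from progenitor to immature cells became 226 with a pseudocount of 1, 1456 with array weights, 189 with a 2-fold minimum, 17 with only these groups in the fit, 1194 with progenitor replicate 3 and immature replicate 4 left out, 157 with the closest pairs averaged, and 147 to 1304 with 1 array left out. In bone stem cells the 5749 calls became 10996 with array weights, 3674 with the closest pairs averaged, 1902 with a 2-fold minimum, and 3746 to 6320 with 1 array left out. The 2-fold minimum left 4379 of 11385, 1796 of 6547 and 5473 of 12978 calls in the other comparisons. Deviations of same-numbered arrays from their group means correlated at -0.149 to 0.264 over 17 pairs. Differently numbered arrays were not correlated for reference, so these values do not settle whether arrays were paired. With the replicate block, 14, 0, 10, 16 and 7 receptors were called in the comparisons, and 21 by the F-test. From stem to progenitor cells the block lost Rxrg (adjusted p = 0.1) and Nr4a3 (adjusted p = 0.0774) and gained Nr4a1 (1.06, adjusted p = 0.0359).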

Other observations

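Receptors of the superfamily outside the set were measured for 9 genes. From stem to progenitor cells 3 rose and none fell, from immature to adult cells 3 rose and 1 fell, and in bone stem cells none rose and 3 fell. Nr5a1, the steroidogenic factor 1 of gonad and adrenal, rose from 77.4 ± 10.7 (SD, n = 5) in stem cells to 767 ± 71.1 (SD, n = 3) in progenitors and stood at 8.2 ± 3.14 (SD, n = 3) in bone stem cells. Nr0b1, its corepressor DAX-1, rose from 9.97 ± 1.42 (SD, n = 5) in stem cells to 283 ± 17.4 (SD, n = 3) in progenitors, and from 336 ± 74.6 to 736 ± 30.1 (SD, n = 4 each) between immature and adult cells. Nr2f2, the orphan receptor COUP-TFII, fell from 1052 ± 209 to 714 ± 45.3 (SD, n = 4 each) between immature and adult cells (-0.53, adjusted p = 0.0055) and was lower in bone stem cells than in stem Leydig cells (-1.72, adjusted p = 8.95e-09). Nr3c1, the glucocorticoid receptor, was lower there as well (-0.43, adjusted p = 0.0206).

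Of 8 measured genes of the estrogen and vitamin D axis, 2 rose and 1 fell from stem to progenitor cells and 3 rose and 2 fell from stem to adult cells. Cyp27a1, the mitochondrial sterol 27-hydroxylase, which makes an oxysterol ligand of the liver X receptors and also 25-hydroxylates vitamin D, rose at each Leydig step, from 54.8 ± 6.16 (SD, n = 5) through 526 ± 33.8 (SD, n = 3) and 894 ± 121 to 1454 ± 151 (SD, n = 4 each), with adjusted p = 5.93e-14, 0.00214 and 9.82e-05. Of 5 measured xenobiotic receptor targets, Abcb1a, the drug exporter, rose from 12.9 ± 9.61 in immature to 107 ± 65.8 (SD, n = 4 each) in adult cells (adjusted p = 0.00147), where endothelial Cldn5 also stood at 763 ± 513 (SD, n = 4) against 114 ± 121 (SD, n = 4); its part was not tested.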
